A study of Mus musculus with 8 samples.

Results

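The solute carriers that bring glucose, amino acids and monocarboxylates such as lactate across cell membranes were examined in the yolk sac of mouse embryos with activated or ablated Notch signaling in the endothelium. A gene was included when its symbol belongs to 1 of 6 families, Slc1, Slc2, Slc5, Slc7, Slc16 or Slc38, and a probe set on the array names that gene alone. Of 18194 genes on the array, 70 met this rule, 143 probe sets detected them, and 40 of them had several probe sets. Slc2a4rg-ps, a pseudogene, and Slc7a6os, a neighbour of Slc7a6, carry matching symbols but are not carriers, which leaves 68 carriers. Slc1a2 was also named by a probe set that it shares with Gm13872, and that probe set was not used. Slc2a7, Slc38a8 and Slc38a11 were not analysed here.

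RNA of whole yolk sacs at embryonic day 9.5 was hybridised to 8 Affymetrix arrays in 2 sets, with 2 mutant and 2 wild type arrays in each. EC-N1ICD embryos (Tie2 Tg/0; ROSA +/N1ICD) switch on the intracellular domain of Notch1 after Tie2-Cre recombination, and were set against wild type embryos (Tie2 0/0; ROSA +/+) of the same C57BL6 set. EC-Rbpj-KO embryos (Tie2-Cre; Rbpj flox/flox) lose RBPJ, the DNA-binding protein through which cleaved Notch acts, and were set against embryos of the same mixed-strain set that are called wild type without a stated genotype. The labels do not state how many embryos each array stands for. Tie2-Cre is active in endothelial and hematopoietic cells, while the yolk sac also holds visceral endoderm and mesothelium, and in whole tissue fewer cells of a type and less RNA per cell cannot be told apart. The values are MAS5 signals, which are linear, and signals of different probe sets do not rank genes by RNA amount. Signals of Rbpj were 470 and 497 in EC-Rbpj-KO yolk sacs, against 984 and 919 in wild type. Those of Notch1 were 455 and 538 in EC-N1ICD yolk sacs, against 453 and 335 in wild type, so replicate 1 was level with a wild type array, and whether this probe set reads the transgene was not tested. In each set the titles of the second mutant array and both wild type arrays share a leading number, whose meaning the labels do not give, and the first mutant array has another. Transcripts of the embryo's sex moved with genotype, since Xist, the RNA of the inactive X chromosome, was high in both EC-N1ICD samples and in EC-Rbpj-KO replicate 1 (2005 to 3730) and low on the other 5 arrays (77 to 96). Endoderm genes were strong, with all 12 listed markers above the filter described below. Of 9 listed endothelial markers 7 were above it, from Tie1 with signals of 49 to 98 to Kdr with 350 to 1122. The endothelial markers Pecam1 and Emcn stayed below it, with highest signals of 43 and 114. Erythroid signal was low on replicate 1 of each mutant, with sums over 11 genes of 48577 and 82864 in EC-N1ICD yolk sacs, against 95776 and 101682 in wild type, and of 54509 and 66879 in EC-Rbpj-KO yolk sacs, against 71226 and 69162 in wild type.

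Before the placenta takes over, the visceral endoderm of the yolk sac absorbs nutrients from its surroundings and passes them on to the embryo. Glucose enters cells by facilitated diffusion through the Slc2 carriers or together with sodium through several Slc5 carriers. Amino acids enter through the Slc1, Slc7 and Slc38 families, some of them by exchange for another amino acid, and the Slc16 family moves lactate, pyruvate and related acids, with some members carrying aromatic amino acids, creatine or carnitine. Several carriers work only beside a second protein, such as Slc3a2 for several Slc7 light chains and Bsg or Emb for the lactate carriers. Transcription of some members is known to respond to the supply of amino acids through Atf4, or to low oxygen.

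Starts of these genes were searched for the core letters bound by RBPJ, GTGGGAA, and for ACGTG, the core shared by hypoxia-inducible factors and many E-box proteins. The windows ran from 250 bases before to 50 bases after each RefSeq start on GRCm38.p6, both strands were read, and 63 windows of 51 of the 70 genes were available. GTGGGAA stood in 2 of them (3.17%), against 6.38% of all 32851 windows of the same length, and the genes were Slc5a6 and Slc7a6os. ACGTG stood in 18 windows (28.6%) of 16 genes, against 19.6% of all windows. The motifs share the letters GTG, so a site can count for both. The following windows are shown because the results below return to their genes, with a match in capitals: that of Slc5a6 (chr5:31048513-31048812, minus strand), where TTCCCAC is the complement of GTGGGAA 110 bases before the start, that of Slc2a1 (chr4:119108495-119108794, plus strand), with ACGTG 36 bases before the start, and that of Slc5a4b (chr10:76110969-76111268, minus strand), with neither. A match describes letters in a window, and binding was not measured.
Slc5a6: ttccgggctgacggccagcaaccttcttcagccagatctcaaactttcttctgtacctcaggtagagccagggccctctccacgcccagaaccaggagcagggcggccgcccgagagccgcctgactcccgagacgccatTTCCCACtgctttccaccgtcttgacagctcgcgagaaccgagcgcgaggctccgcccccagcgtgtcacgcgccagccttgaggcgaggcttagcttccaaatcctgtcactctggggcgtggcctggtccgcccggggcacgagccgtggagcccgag
Slc2a1: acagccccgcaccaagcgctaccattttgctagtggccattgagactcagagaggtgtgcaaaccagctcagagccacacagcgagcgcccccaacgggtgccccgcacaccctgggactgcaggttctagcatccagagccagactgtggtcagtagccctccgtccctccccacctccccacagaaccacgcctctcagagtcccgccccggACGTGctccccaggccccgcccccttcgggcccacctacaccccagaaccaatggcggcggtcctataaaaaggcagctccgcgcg
Slc5a4b: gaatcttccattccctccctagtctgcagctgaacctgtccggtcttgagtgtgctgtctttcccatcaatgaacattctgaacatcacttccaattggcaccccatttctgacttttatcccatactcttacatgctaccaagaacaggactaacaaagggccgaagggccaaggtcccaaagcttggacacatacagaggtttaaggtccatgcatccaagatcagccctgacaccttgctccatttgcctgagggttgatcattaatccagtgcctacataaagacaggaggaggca

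A gene was tested when its mean signal over the 8 arrays exceeded the 40th percentile of genes, a signal of 67.9. Of the 70 genes, 43 passed and 27 were at background by this measure. In the Slc38 family all 9 members passed. Of the other families 10 of 13 Slc16, 8 of 16 Slc7, 7 of 13 Slc5, 6 of 12 Slc2 and 3 of 7 Slc1 members passed. Just below the filter stood Slc1a1, Slc7a2 and Slc7a3, with mean signals of 64.4, 62.4 and 62.2, and just above it stood Slc16a8 and Slc1a5, with 75.8 and 76.1. Among the carriers at background was Slc7a11, the cystine-glutamate exchanger, with signals of 11 to 16 on all 8 arrays.

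Changes were few and mostly small. Slc5a4b rose more than 2-fold in both models, Slc38a4 rose in EC-N1ICD, and Slc38a2 and Slc38a6 fell in EC-Rbpj-KO. In EC-N1ICD, 2 of the 43 tested genes (4.65%) rose at an adjusted p under 0.05 (limma, Benjamini-Hochberg over 10913 genes), where 0.596% of all genes tested were called in either direction and 0.376% were called higher. None fell (0.220% of all genes did), although 6 were lower at an unadjusted p under 0.05, and the methods' t-test gave 0 falls after adjustment and 3 before it. In EC-Rbpj-KO, 3 of the 43 (6.98%) were called, where 4.96% of all genes tested were, and 2 of the 3 fell, where 2.96% of all genes did. With the leading title number as a block, an alternative chosen after seeing the data, 0 were called in EC-N1ICD, while Slc5a3 was called in place of Slc38a6 in EC-Rbpj-KO. At an unadjusted p under 0.05, 4 (9.3%) were higher and 6 (14%) lower in EC-N1ICD, beside 6.52% higher and 5.47% lower over all genes. The counts were 4 higher (9.3%) and 7 lower (16.3%) in EC-Rbpj-KO, beside 8.36% and 11.6% over all genes. The log2 fold change was within 0.5 of no change in 35 of the 43 in EC-N1ICD and in 33 of the 43 in EC-Rbpj-KO. The median log2 fold change of the 43 was -0.05 with EC-N1ICD and -0.01 with EC-Rbpj-KO, beside 0.01 and -0.02 over all genes tested. Both mutant arrays lay beyond both wild type arrays for 22 genes in EC-N1ICD (10 above and 12 below) and for 21 in EC-Rbpj-KO (9 above and 12 below), near the shares of all genes, which were 42.6% and 50.8%.

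**Figure D1:**
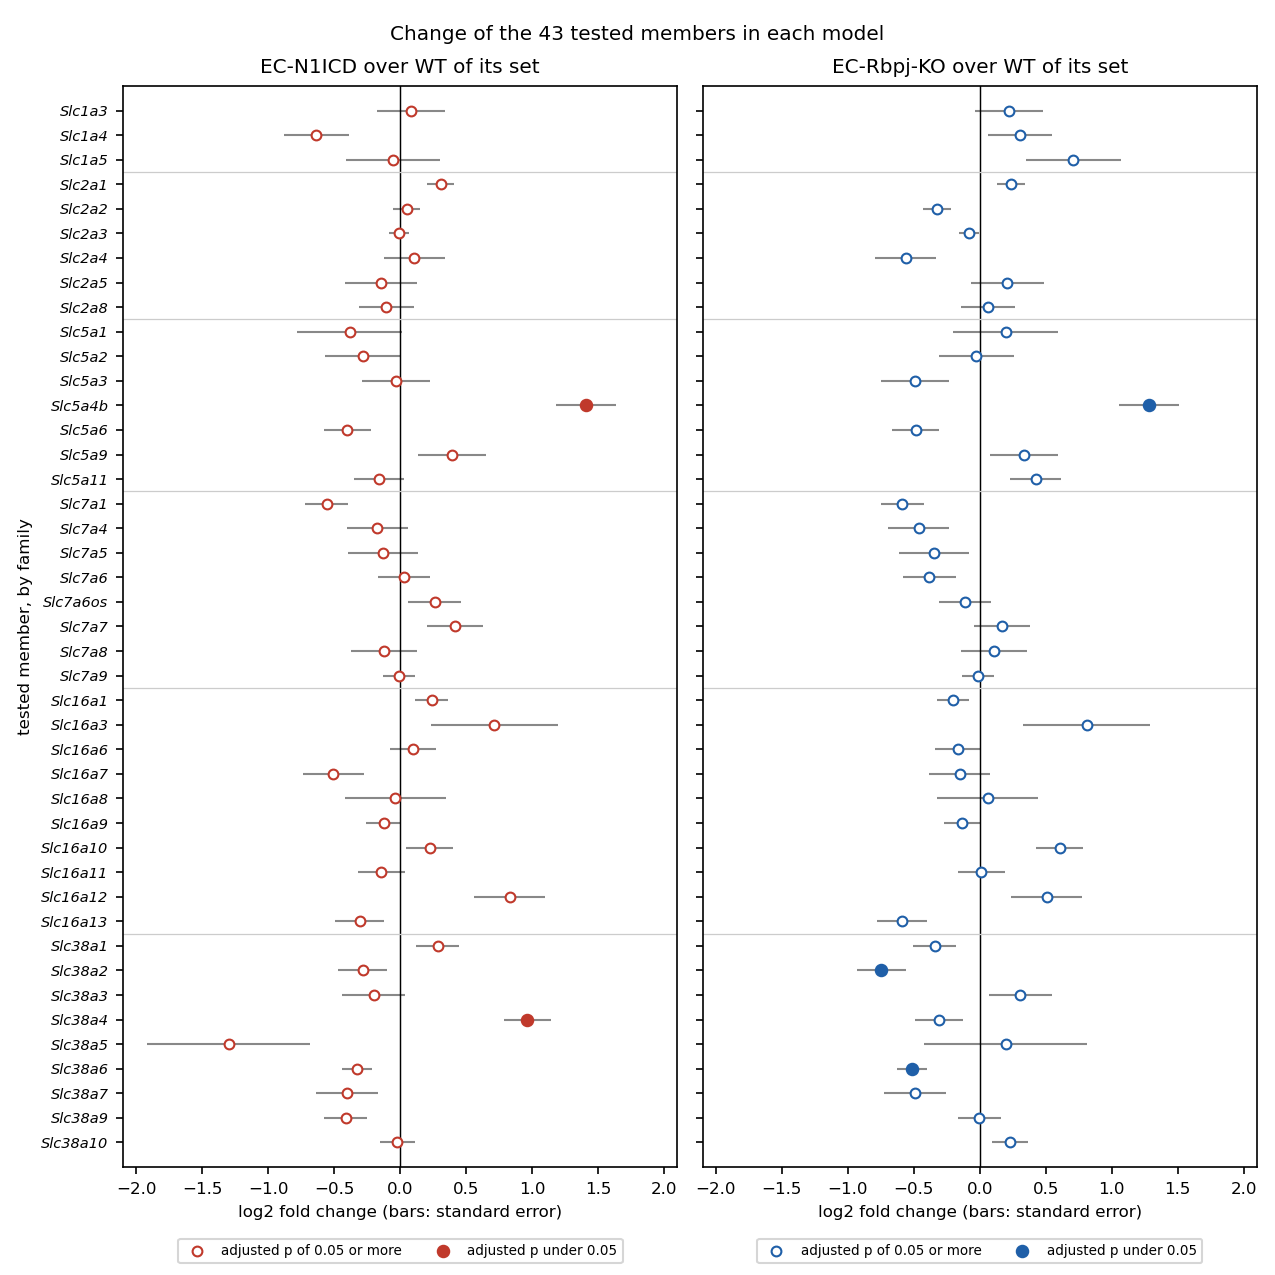
Log2 fold changes of the 43 tested genes, ordered by family, in EC-N1ICD over wild type (left) and EC-Rbpj-KO over wild type (right), with bars of 1 standard error and filled points at an adjusted p under 0.05. Slc5a4b and Slc38a4 are filled at left, Slc5a4b, Slc38a2 and Slc38a6 at right, and Slc38a5 has the widest bars.

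Among the glucose carriers the Slc2 family gave no call (limma, 0 of 6), and at an unadjusted p under 0.05 it had 1 higher in EC-N1ICD, and 1 higher and 2 lower in EC-Rbpj-KO. Slc2a1 encodes GLUT1, the glucose carrier of most embryonic tissues and of erythroid cells. Its signals were 13514 and 11973 in EC-N1ICD yolk sacs, against 11107 and 9523 in wild type. In the EC-Rbpj-KO set they were 9716 and 10966 in EC-Rbpj-KO yolk sacs, against 8879 and 8647 in wild type. Both arrays of each mutant lay above both of their wild type arrays. The change was 1.24-fold in EC-N1ICD (95% interval 1.06 to 1.45, adjusted p = 0.235, limma, n = 2 per group). In EC-Rbpj-KO it was 1.18-fold (95% interval 1.01 to 1.38, adjusted p = 0.229, limma), so neither change passed the threshold. The other probe sets of Slc2a1 had ratios of 1.19 and 1.46 in EC-N1ICD, and of 1.18 and 1.07 in EC-Rbpj-KO.

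Slc2a2 encodes GLUT2, the low-affinity glucose carrier of liver and absorptive epithelia. Its signals were 10224 and 9059 in EC-N1ICD yolk sacs, against 9913 and 8739 in wild type. The EC-Rbpj-KO set gave 8085 and 8735 in EC-Rbpj-KO yolk sacs, against 9952 and 11144 in wild type. The EC-N1ICD arrays overlapped with theirs, while both EC-Rbpj-KO arrays were below wild type. The log2 fold change in EC-Rbpj-KO was -0.33 (standard error 0.10, adjusted p = 0.0999, limma), and in EC-N1ICD it was 0.05 (standard error 0.10, adjusted p = 0.916, limma). Slc2a3 encodes the high-affinity glucose carrier GLUT3. On the probe set used, its signals were 18020 and 17917 in EC-N1ICD yolk sacs, against 18396 and 17768 in wild type, and 15775 and 17343 in EC-Rbpj-KO yolk sacs, against 16674 and 18307 in wild type. In both sets the groups overlapped on this probe set, with ratios of 0.994 in EC-N1ICD (95% interval 0.886 to 1.12) and 0.947 in EC-Rbpj-KO (95% interval 0.844 to 1.06). A weaker probe set of Slc2a3 gave signals of 130 and 253 in EC-Rbpj-KO yolk sacs, against 428 and 554 in wild type, a ratio of 0.372. Another weak one had 103 and 138 in EC-Rbpj-KO yolk sacs, against 192 and 260 in wild type, a ratio of 0.534. The probe sets of Slc2a3 therefore disagree on the size of the difference in EC-Rbpj-KO, and only the strongest entered the test. Slc2a4, the insulin-responsive glucose carrier of muscle and fat, gave signals of 77 and 68 in EC-Rbpj-KO yolk sacs, against 112 and 102 in wild type, and the log2 fold change was -0.56 (standard error 0.23, adjusted p = 0.199, limma). Slc2a5, a fructose carrier, and Slc2a8 had log2 fold changes between -0.15 and 0.21 in both models.

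**Figure D2:**
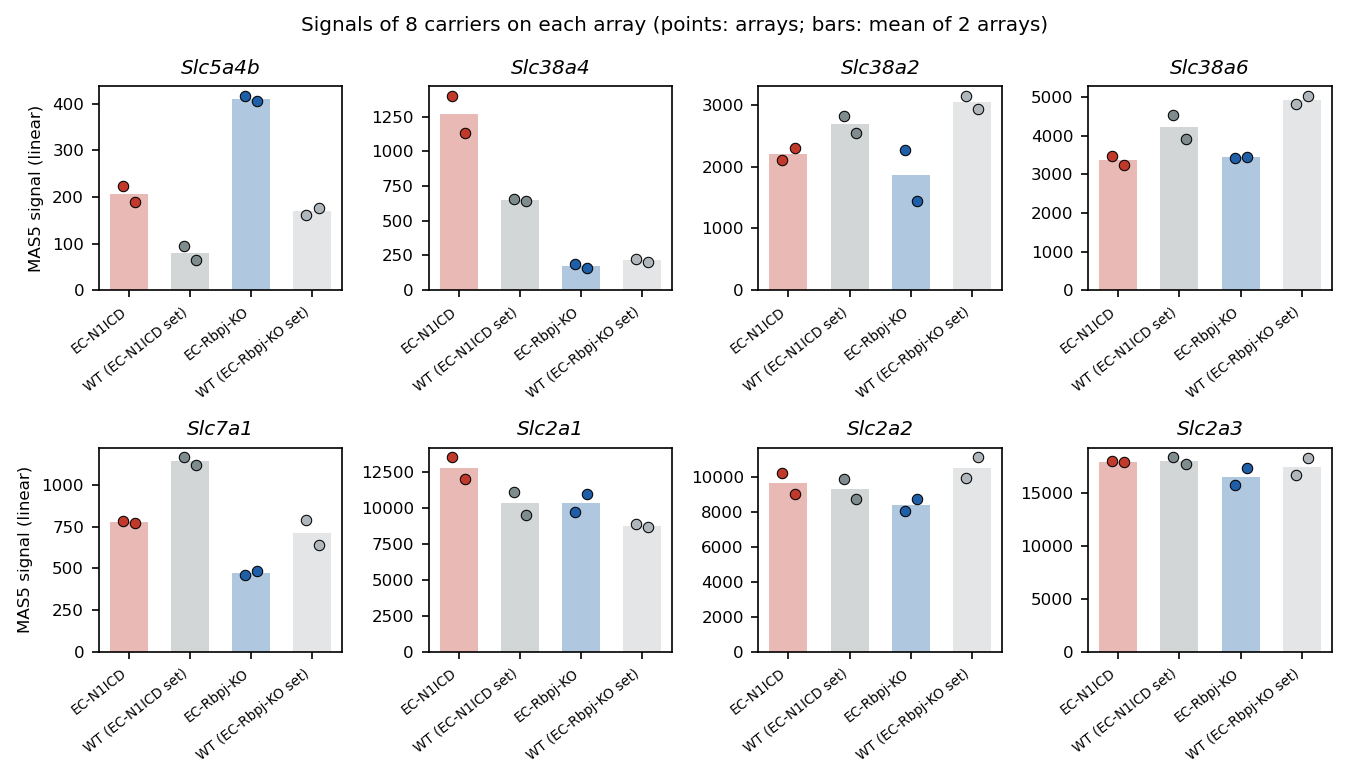
MAS5 signals (linear axes from 0) of 8 carriers on each array, with points for arrays and bars for the mean of 2 arrays, each mutant left of the wild type of its set. Slc5a4b is higher in both mutants, Slc38a4 is higher in EC-N1ICD, and the bars of Slc2a3 are nearly level.

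The sodium-coupled family held the carrier with the most pronounced change. Slc5a4b is 1 of 2 mouse relatives of human SLC5A4, which binds glucose and responds to it with an ion current rather than with uptake. Its signals were 223 and 189 in EC-N1ICD yolk sacs, against 94 and 64 in wild type. The EC-Rbpj-KO set read 417 and 405 in EC-Rbpj-KO yolk sacs, against 162 and 176 in wild type. No mutant array overlapped with a wild type array of its set, and it was the only one of the 43 to differ at least 2-fold without overlap, in either model (1.04% of all genes did so in the upward direction with EC-N1ICD and 1.71% with EC-Rbpj-KO). Slc5a4b rose 2.65-fold in EC-N1ICD (log2 fold change 1.40, standard error 0.23, adjusted p = 0.0183, limma). It rose 2.43-fold in EC-Rbpj-KO (log2 fold change 1.28, standard error 0.23, adjusted p = 0.00928, limma). The changes in the 2 models differed by 0.12 on the log2 scale (95% interval -0.58 to 0.83, adjusted p = 0.926, limma), so the rise came with both activation and ablation of Notch signaling, and the interval leaves room for a difference of either sign. Wild type signals of the 2 sets also differed, and set and strain cannot be told apart there. A single probe set detects Slc5a4b, and whether it also reads the close relative Slc5a4a was not tested. The probe set of Slc5a4a gave signals of 14 to 23. The EC-N1ICD call ended without EC-N1ICD replicate 1 (adjusted p = 0.240), EC-N1ICD replicate 2 (0.0546) or wild type replicate 2 (0.104), within a range of 0.0106 to 0.580 over 17 alternatives. With sex in the fit the log2 fold change was 1.36 (adjusted p = 0.235), but sex follows genotype in the EC-N1ICD set, so that its term rests on the 2 EC-Rbpj-KO arrays alone. The EC-Rbpj-KO call ended without wild type replicate 1 (0.0694) or 2 (0.0588) of its set, within a range of 0.00371 to 0.318.

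Slc5a6 moves the vitamins biotin and pantothenate into cells, and 1 of its 2 start windows holds the RBPJ core letters. Its signals were 209 and 187 in EC-N1ICD yolk sacs, against 271 and 252 in wild type. In the second set the signals were 299 and 326 in EC-Rbpj-KO yolk sacs, against 466 and 411 in wild type. Both mutants were below their wild type without overlap. The log2 fold change was -0.40 in EC-N1ICD (standard error 0.18, adjusted p = 0.402, limma) and -0.49 in EC-Rbpj-KO (standard error 0.18, adjusted p = 0.152, limma), neither past the threshold. Slc5a3 and Slc5a11 carry the osmolyte myo-inositol. On the probe set used, Slc5a3 gave signals of 854 and 462 in EC-Rbpj-KO yolk sacs, against 958 and 812 in wild type (adjusted p = 0.316, limma). On this probe set the difference rests on replicate 2, since the first replicate lay within the wild type range. Without replicate 1 the log2 fold change was -0.93, from a lone mutant array. A weaker probe set of Slc5a3 had 130 and 112 in EC-Rbpj-KO yolk sacs, against 228 and 196 in wild type, a ratio of 0.571. There both mutant arrays lay below both wild type arrays, and this probe set did not enter the test. Slc5a11 had 325 and 391 in EC-Rbpj-KO yolk sacs, against 269 and 263 in wild type, and the log2 fold change was 0.42 (standard error 0.19, adjusted p = 0.245, limma). The intestinal and renal glucose cotransporters Slc5a1 and Slc5a2 overlapped with wild type in both models.

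In the amino acid families the calls fell within Slc38, the sodium-coupled neutral amino acid carriers. Slc38a4 carries small neutral amino acids in liver and placenta and is imprinted in the mouse, with expression from the paternal copy. Its signals were 1400 and 1133 in EC-N1ICD yolk sacs, against 654 and 639 in wild type. In the second set they were 186 and 162 in EC-Rbpj-KO yolk sacs, against 228 and 203 in wild type. Both EC-N1ICD arrays were above wild type, both EC-Rbpj-KO arrays were below it, and the wild type arrays of the 2 sets stood far apart. Slc38a4 rose 1.95-fold in EC-N1ICD (log2 fold change 0.96, standard error 0.18, adjusted p = 0.0389, limma). In EC-Rbpj-KO its log2 fold change was -0.31 (standard error 0.18, adjusted p = 0.366, limma). The 2 changes differed by 1.27 on the log2 scale (standard error 0.25), which did not pass the test of the difference (adjusted p = 0.0758, limma). Its second probe set had 1135 and 1063 in EC-N1ICD yolk sacs, against 562 and 623 in wild type, a ratio of 1.86. The call ended without any 1 of the 4 arrays of its set, at adjusted p of 0.461 and 0.0715 without EC-N1ICD replicates 1 and 2 and 0.139 and 0.154 without wild type replicates 1 and 2. It also ended without either wild type array of the EC-Rbpj-KO set (0.0644 and 0.0650), where only the shared spread changes, within a range of 0.0256 to 0.580 over 18 alternatives. With sex in the fit, under the same limit, its log2 fold change was 0.76 (adjusted p = 0.328). In the same arrays Acta2, smooth muscle actin, gave signals of 14640 and 13687 in EC-N1ICD yolk sacs, against 7480 and 8684 in wild type (adjusted p = 0.0651, limma). Of 9 mesothelial and smooth muscle genes tested, 2 rose (Tagln and Myl9), where 0.376% of all genes tested were called higher in EC-N1ICD. The summed signal of the 10 such genes on the array was 26663 and 25055 in EC-N1ICD yolk sacs, against 17093 and 18525 in wild type. Acta2 made up more of these sums than any other gene. The median log2 fold change of the 9 was 0.13, and Pdgfra, Postn, Col1a1 and Hand1 had negative values. The part of these cells in the Slc38a4 result was not tested.

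Slc38a2 is the neutral amino acid carrier that cells induce when amino acids run short. Its signals were 2267 and 1448 in EC-Rbpj-KO yolk sacs, against 3147 and 2938 in wild type. The EC-N1ICD set gave 2108 and 2298 in EC-N1ICD yolk sacs, against 2820 and 2545 in wild type. All 4 mutant arrays were below the wild type arrays of their set. Slc38a2 fell by 0.75 (log2) in EC-Rbpj-KO (standard error 0.19, adjusted p = 0.0427, limma), and its log2 fold change in EC-N1ICD was -0.28 (standard error 0.19, adjusted p = 0.621, limma). Its 2 weaker probe sets had ratios of 0.877 and 1.20 in EC-Rbpj-KO, and averaged over all its probe sets the change was -0.22 (adjusted p = 0.497). The call ended without EC-Rbpj-KO replicate 2 (log2 fold change -0.42, adjusted p = 0.150) and without wild type replicate 1 (0.186) or 2 (0.169) of its set. It also ended without any 1 array of the EC-N1ICD set (0.0631 to 0.0662), within a range of 0.00623 to 0.522 over 18 alternatives.

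Slc38a6 is a less studied relative of these carriers, known mainly from brain. Its signals were 3436 and 3461 in EC-Rbpj-KO yolk sacs, against 4820 and 5041 in wild type. In the EC-N1ICD set they were 3491 and 3248 in EC-N1ICD yolk sacs, against 4551 and 3921 in wild type. The groups did not overlap in either set. Slc38a6 fell by 0.52 (log2) in EC-Rbpj-KO (standard error 0.12, adjusted p = 0.0278, limma), and its log2 fold change in EC-N1ICD was -0.33 (standard error 0.12, adjusted p = 0.265, limma). The call ended without any 1 array of its set (adjusted p of 0.0554 to 0.201) and without either array of EC-N1ICD (up to 0.0511), within a range of 0.0250 to 0.340 over 18 alternatives. Slc38a9, which senses arginine at the lysosome, gave signals of 628 and 655 in EC-N1ICD yolk sacs, against 873 and 836 in wild type, and the log2 fold change was -0.41 (standard error 0.16, adjusted p = 0.327, limma). In EC-Rbpj-KO it had 760 and 825, against 873 and 721 in wild type, so these arrays overlapped. On the probe set used, Slc38a1 was above wild type in EC-N1ICD (602 and 579 against 506 and 464) and below it in EC-Rbpj-KO (306 and 328 against 414 and 389), with adjusted p of 0.549 and 0.270 (limma). Its weaker probe set had 310 and 350 in EC-N1ICD yolk sacs, against 380 and 411 in wild type, a ratio of 0.833. In EC-Rbpj-KO that ratio was 0.629, so the probe sets of Slc38a1 disagree on the direction in EC-N1ICD.

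**Figure D3:**
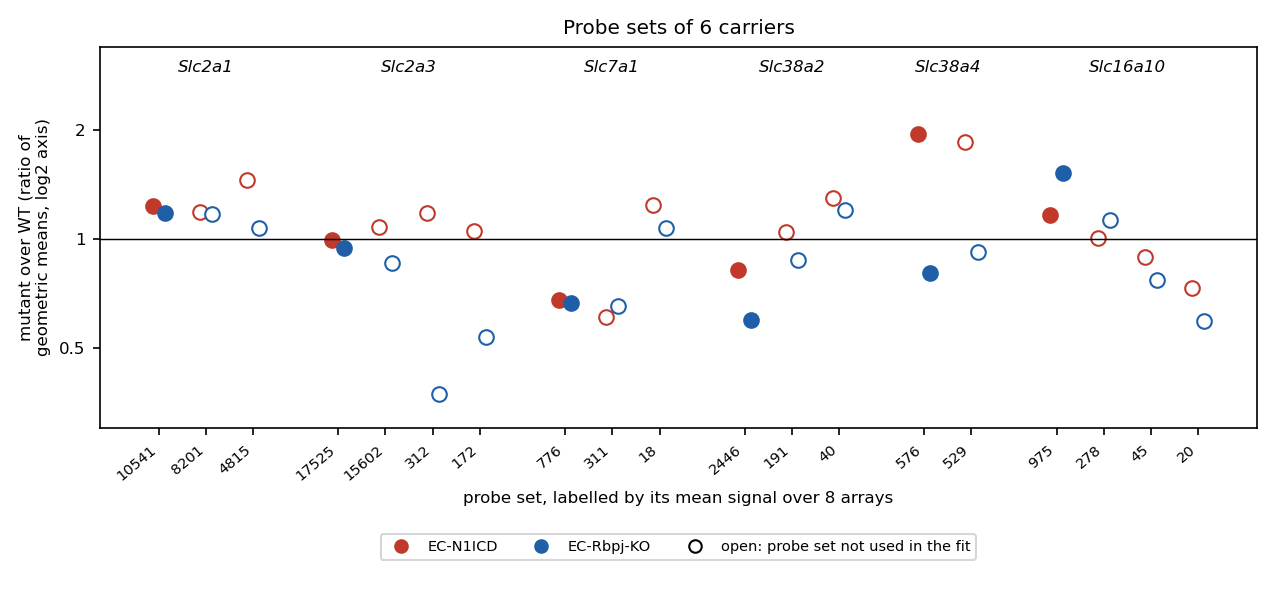
Ratio of geometric means, mutant over wild type (log2 axis), for every probe set of 6 carriers, each labelled by its mean signal, with filled points for the probe set used in the test. The probe sets of Slc38a4 and the 2 stronger ones of Slc7a1 lie together, while those of Slc2a3 and Slc38a2 spread in EC-Rbpj-KO.

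Slc38a5, a glutamine carrier of erythroid precursors encoded on the X chromosome, was singled out after its values were seen. Its signals were 80 and 540 in EC-N1ICD yolk sacs, against 539 and 486 in wild type. The second set gave 168 and 255 in EC-Rbpj-KO yolk sacs, against 190 and 172 in wild type. EC-N1ICD replicate 1 alone stood apart, at a signal near the filter. The log2 fold change in EC-N1ICD was -1.30 (standard error 0.62, adjusted p = 0.442, limma). Without EC-N1ICD replicate 2 it was -2.68 (adjusted p = 0.00300) and without replicate 1 it was 0.08 (adjusted p = 0.999), so a single array set this value. The same array had the lowest erythroid sum of the 8. In EC-N1ICD 9 of the 10 erythroid genes tested were lower at an unadjusted p under 0.05 (limma), where 5.47% of all genes were. The methods' t-test, unadjusted, gave 0 of the 10. The median log2 signal of the 10 relative to wild type was -2 on replicate 1 and -0.396 on replicate 2, so the shift was mostly that of replicate 1. The part of erythroid cells in the Slc38a5 value was not tested.

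**Figure D4:**
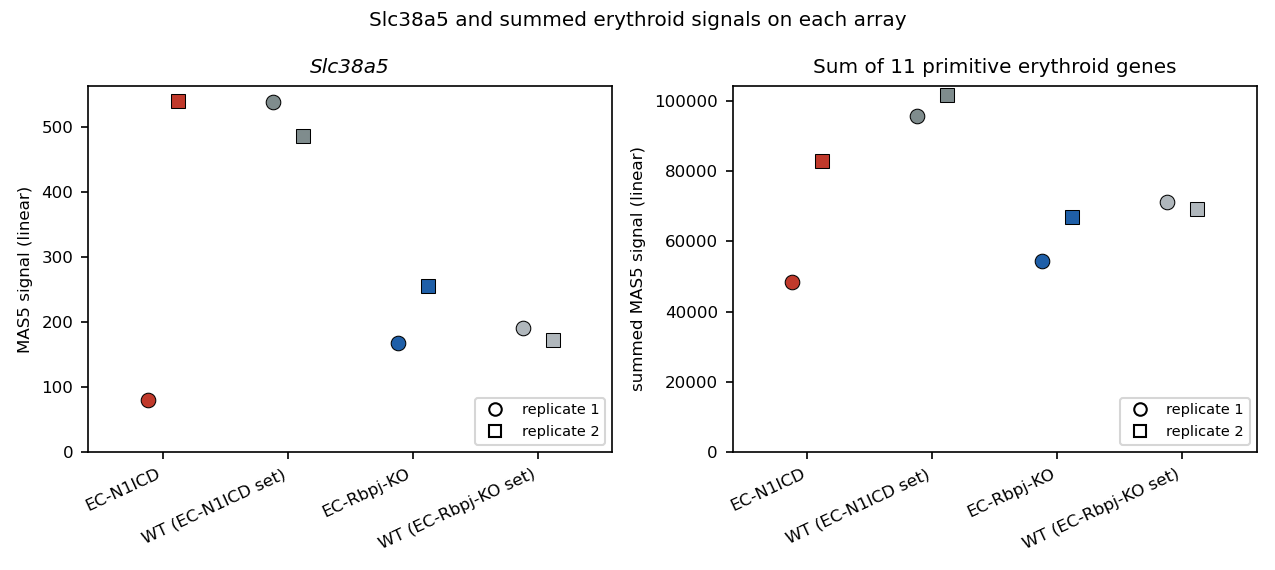
MAS5 signals of Slc38a5 (left) and the summed signal of 11 primitive erythroid genes (right) on each array, linear axes from 0, with circles for replicate 1 and squares for replicate 2 and each mutant left of its wild type. EC-N1ICD replicate 1 is lowest in both panels, at 80 for Slc38a5 and 48577 for the sum.

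The cationic and exchange carriers of the Slc7 family gave no call in either model (limma, 0 of 8 genes tested, Slc7a6os included, with 1 lower at an unadjusted p under 0.05 in each, and 0 by the methods' t-test after adjustment). Slc7a1 is the main arginine and lysine carrier of most cells. Its signals were 785 and 770 in EC-N1ICD yolk sacs, against 1166 and 1120 in wild type. The EC-Rbpj-KO set showed 459 and 486 in EC-Rbpj-KO yolk sacs, against 788 and 638 in wild type. Both mutants were below wild type without overlap. Relative to wild type the ratio was 0.680 in EC-N1ICD (95% interval 0.532 to 0.871, adjusted p = 0.177, limma) and 0.666 in EC-Rbpj-KO (95% interval 0.521 to 0.852, adjusted p = 0.0648, limma). A second probe set had ratios of 0.610 and 0.654, and the third was at background. Slc7a7 and Slc7a9 are light chains for cationic amino acids and cystine in absorptive epithelia. Slc7a7 gave signals of 2375 and 2114 in EC-N1ICD yolk sacs, against 1774 and 1594 in wild type, and the log2 fold change was 0.41 (standard error 0.21, adjusted p = 0.493, limma), and overlapped with wild type in EC-Rbpj-KO. Slc7a9 had ratios of 0.994 in EC-N1ICD (95% interval 0.826 to 1.20) and 0.992 in EC-Rbpj-KO (95% interval 0.824 to 1.19). Slc7a8, an exchanger of large neutral amino acids, overlapped with wild type in both models. In the Slc1 family, Slc1a4, an exchanger of serine and alanine, gave signals of 112 and 87 in EC-N1ICD yolk sacs, against 161 and 146 in wild type, and 121 and 117 in EC-Rbpj-KO yolk sacs, against 109 and 85 in wild type. Its log2 fold changes were -0.64 and 0.31 (adjusted p of 0.313 and 0.526, limma), and all groups lay close to background. The glutamine carrier Slc1a5 and the glutamate carrier Slc1a3 also lay close to background, with signals of 44 to 103 and 71 to 118, and neither changed past the threshold.

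The monocarboxylate carriers gave no call either (limma, 0 of 10, with 1 higher and 1 lower at an unadjusted p under 0.05 in each model, and 0 by the methods' t-test after adjustment). Slc16a1 moves lactate and pyruvate in most tissues. Its signals were 11537 and 10929 in EC-N1ICD yolk sacs, against 9663 and 9390 in wild type. In the EC-Rbpj-KO set the signals were 9991 and 7456 in EC-Rbpj-KO yolk sacs, against 9430 and 10484 in wild type. It was above wild type in EC-N1ICD, by 1.18-fold (95% interval 0.977 to 1.42, adjusted p = 0.497, limma), and overlapped with wild type in EC-Rbpj-KO. Slc16a3, the lactate exporter of glycolytic cells, was below the array medians in the EC-N1ICD set (40 and 34 in EC-N1ICD yolk sacs, against 22 and 23 in wild type) and scattered in the other (134 and 208 in EC-Rbpj-KO yolk sacs, against 174 and 52 in wild type). Slc16a10 carries aromatic amino acids. Its signals were 1357 and 1233 in EC-Rbpj-KO yolk sacs, against 821 and 881 in wild type, and the log2 fold change was 0.61 (standard error 0.18, adjusted p = 0.0806, limma), and it passed after quantile normalization (adjusted p = 0.0222) or median centring (0.0235). Its 3 weaker probe sets had ratios of 1.13, 0.771 and 0.592. Slc16a12, a creatine carrier, gave signals of 516 and 336 in EC-N1ICD yolk sacs, against 239 and 230 in wild type, and the log2 fold change was 0.83 (standard error 0.27, adjusted p = 0.214, limma). Slc16a13, a lactate carrier of liver, had 1124 and 1579 in EC-Rbpj-KO yolk sacs, against 2232 and 1801 in wild type, and the log2 fold change was -0.59 (standard error 0.19, adjusted p = 0.0999, limma), and -0.83 without EC-Rbpj-KO replicate 2 (adjusted p = 0.0335), where a lone mutant array, the lower one, is assumed to vary like the other groups. Slc16a7, a high-affinity pyruvate carrier, had 98 and 88 in EC-N1ICD yolk sacs, against 110 and 158 in wild type (adjusted p = 0.414, limma). Slc16a9, linked to carnitine in human, had ratios of 0.916 and 0.912 in the 2 models, and neither passed.

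Between the models none of the 43 genes tested differed at an adjusted p under 0.05 (limma, where 0.266% of all genes were called), and 5 differed at an unadjusted p under 0.05 (11.6%, against 10.8% of all genes). These were Slc2a2, Slc16a1, Slc38a1 and Slc38a4, higher in EC-N1ICD relative to wild type than in EC-Rbpj-KO, and Slc1a4, lower. Taking only genes without overlap in both sets on the probe set used, Slc2a1, Slc5a4b and Slc5a9 were above wild type in both, and Slc5a6, Slc7a1, Slc16a13, Slc38a2 and Slc38a6 were below it in both. Slc5a9 lay near the filter, with signals of 81 to 130. Its weaker probe sets had ratios of 0.927, 0.852 and 1.25 in EC-N1ICD, and of 1.40, 1.32 and 1.88 in EC-Rbpj-KO. Slc38a1 and Slc38a4 were above in EC-N1ICD and below in EC-Rbpj-KO, and Slc1a4 and Slc38a3 the reverse. The weaker probe set of Slc38a1 was below wild type in both sets. Of all genes tested, 8.33% were above in both, 7.95% below in both, 3.84% above then below and 2.35% below then above.

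Partner proteins and enzymes of the same routes were looked at beside the carriers. Slc3a2, the heavy chain of several Slc7 exchangers, gave signals of 5794 and 6011 in EC-N1ICD yolk sacs, against 4878 and 4387 in wild type, and did not pass (adjusted p = 0.188, limma). Slc3a1, another listed partner, was at background, with a highest signal of 53. Of 8 partners and regulators tested, only Cltrn, an X-linked protein that brings amino acid carriers to the membrane in kidney, was called. Cltrn gave signals of 92 and 223 in EC-Rbpj-KO yolk sacs, against 633 and 846 in wild type, and fell by 2.35 on the log2 scale (standard error 0.36, adjusted p = 0.00391, limma), while in EC-N1ICD it had 277 and 188, against 247 and 309. Txnip, which withdraws GLUT1 from the cell surface when glucose is ample, was above wild type in both models (log2 fold changes 0.63 and 0.27), without passing. Of 14 enzymes of glycolysis and lactate production tested, 1 was called in EC-Rbpj-KO and 0 in EC-N1ICD (limma, with 1 higher and 1 lower at an unadjusted p under 0.05 and 0 by the methods' t-test after adjustment). That enzyme was Pfkp, the platelet form of phosphofructokinase, with 728 and 743 in EC-Rbpj-KO yolk sacs, against 1492 and 1397 in wild type, a fall of 0.97 (adjusted p = 0.00496, limma), which ended without wild type replicate 1 (0.0564). Of 19 genes of the amino acid response tested, 1 fell in EC-N1ICD, and 1 rose and 3 fell in EC-Rbpj-KO. Atf4, the transcription factor of this response, had 2093 and 2118 in EC-Rbpj-KO yolk sacs, against 3140 and 2969 in wild type, and fell by 0.54 (adjusted p = 0.0291, limma), which ended without any 1 array of its set (adjusted p of 0.0554 to 0.176) and was lost with the mean of all its probe sets (log2 fold change 0.01). Cebpb, a transcription factor, and Psph, the last enzyme of serine synthesis, fell by 1.20 and 0.52, and Ddit4, an inhibitor of mTORC1 signaling, rose by 2.06 on the log2 scale. Of these calls Cebpb kept 17 of 18 alternatives and Psph 5 of 18, and Ddit4 ended without wild type replicate 1 (adjusted p = 0.0686). Trib3, a pseudokinase that Atf4 induces, had 229 and 308 in EC-N1ICD yolk sacs, against 594 and 741 in wild type, and fell by 1.32 (adjusted p = 0.0165, limma), a call that ended without EC-N1ICD replicate 1 (0.217), wild type replicate 1 (0.0665) or wild type replicate 2 (0.121). Asns, the asparagine synthetase, was not called in either model (adjusted p of 0.241 and 0.326).

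Cell type markers in EC-Rbpj-KO moved beside the Slc38a2 and Slc38a6 falls and the Slc5a4b rise. Of 12 visceral endoderm markers tested, 2 fell in EC-Rbpj-KO, the endocytic receptors Lrp2, which fell by 1.16, and Cubn, which fell by 0.34, with calls kept under 12 and 5 of 18 alternatives. The Lrp2 call ended without EC-Rbpj-KO replicate 2 (adjusted p = 0.0515), wild type replicate 1 (0.103) or wild type replicate 2 (0.0604). In EC-N1ICD 0 were called (limma, 1 lower at an unadjusted p under 0.05 and 0 by the methods' t-test after adjustment). The summed endoderm signal was 189201 and 201823 in EC-Rbpj-KO yolk sacs, against 203433 and 218349 in wild type, and 197372 and 194719 in EC-N1ICD yolk sacs, against 196568 and 201293 in wild type. Of 8 macrophage markers 4 rose and 1 fell in EC-Rbpj-KO, with sums of 4799 and 3466 in EC-Rbpj-KO yolk sacs, against 2127 and 1527 in wild type. In EC-N1ICD 0 of the 8 were called, with 3 higher and 0 lower at an unadjusted p under 0.05 (limma). Their sums were 2935 and 2491 in EC-N1ICD yolk sacs, against 2429 and 2196 in wild type. Cldn5, an endothelial tight junction gene, rose by 1.62 (log2) in EC-Rbpj-KO, the only 1 of 7 endothelial markers tested to be called. Of 10 erythroid markers tested, only Tfrc, the transferrin receptor, was called, and it fell in both models, with log2 fold changes of -1.65 with EC-N1ICD and -1.97 with EC-Rbpj-KO. Its EC-N1ICD call ended without EC-N1ICD replicate 1 (adjusted p = 0.217), wild type replicate 1 (0.130) or wild type replicate 2 (0.223). The 3' to 5' signal ratio of Actb, a sign of RNA quality, was 2.29 and 2.09 in EC-Rbpj-KO yolk sacs, against 1.90 and 1.84 in wild type, and 1.72 and 1.75 in EC-N1ICD yolk sacs, against 2.1 and 2.34 in wild type. The part of these cells and of RNA quality in the carrier results was not tested.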

How the data were processed

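Deposited intensity values, 1 linear MAS5 signal per probe set and array, were made by the authors from total RNA of yolk sacs with an oligo-dT primed, biotin-labelled protocol, and the MAS5 version and scaling target are not given in the sources used here. Values run from 7 to 36554, carry no detection calls here, and have array medians of 38 to 51. Of 45101 probe sets, 34958 name 1 gene in the platform annotation, 932 name several and 9211 none. Each gene was represented by the strongest of its probe sets (mean of 8 arrays), and 10913 genes above the 40th percentile were tested. Log2 signals of 4 groups were modelled in R 4.3.3 with limma 3.58.1 (contrasts within a set, eBayes with trend, 4 residual and 7.37 prior degrees of freedom), with two-sided p-values adjusted by Benjamini-Hochberg over all genes tested, and the steps were tested on simulated data. With 2 arrays per group an exact permutation test cannot give a p under 0.333. The number of arrays limits the precision, and p-values reflect only how far these samples spread, which may be technical. Log2 signals of replicates correlated at 0.976 to 0.987 (Pearson). The 3' to 5' signal ratio was 1.72 to 2.34 for Actb and 2.43 to 4.64 for Gapdh. Both were lower on the EC-N1ICD arrays than on their wild type arrays, whereas that of Actb was higher on the EC-Rbpj-KO arrays than on theirs. Start windows are from RefSeq, GRCm38.p6. Members, gene lists and motifs were chosen with earlier results of these data known. The rule for named genes took those past an adjusted or unadjusted p of 0.05, those at least 2-fold different without overlap, and the 3 per family with the highest signal, and other genes are named as examples or from the lists. Alternatives were other normalizations, filters, probe set summaries and variance models, the methods' t-test, embryo sex as a term, each array left out in turn (a lone array left in a group is assumed to vary like the other groups) and, chosen after seeing the data, the leading number of the sample titles as a block.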

Additional observations from a re-analysis of the deposited data

How the results depend on the processing

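Of the carriers called, Slc5a4b in EC-Rbpj-KO kept its call under 14 of 17 alternatives and in EC-N1ICD under 12 of 17, while Slc38a4 kept it under 7 of 18 and Slc38a2 and Slc38a6 under 6 of 18 each, and no called change reversed. The count of 2 changed carriers in EC-N1ICD became 0 with the filter at the 60th percentile, 1 without a filter, 1 without the eBayes trend, 0 with sex in the fit, 0 with the methods' t-test after Benjamini-Hochberg and 7 (4 higher, 3 lower) with that test unadjusted. The filter at the 60th percentile no longer tests Slc5a4b. The count of 3 in EC-Rbpj-KO became 1 with the mean of all probe sets, 1 without the trend, 1 with each set fitted alone, 0 with the methods' t-test after Benjamini-Hochberg and 8 (3 higher, 5 lower) with it unadjusted. Leaving out 1 array at a time gave 0 to 2 in EC-N1ICD, with 0 when EC-N1ICD replicate 1 or the second wild type array was left out and 1, Slc38a5 alone, without EC-N1ICD replicate 2. It gave 0 to 4 in EC-Rbpj-KO, with 0 without either wild type array of its set, and 0 to 1 for the difference between the models, the 1 being Slc38a5 without EC-N1ICD replicate 2. Elsewhere the cause was not tested. In EC-Rbpj-KO, sex in the fit and the removal of replicate 1 are the same check, and in EC-N1ICD, where sex follows genotype, the sex term comes from the EC-Rbpj-KO arrays. The replicate numbers follow the order of the samples and pair no mutant with a wild type, so no analysis was paired by them. With the leading title number as a block, an alternative chosen after seeing the data and not counted above, both first mutant arrays drop out. The count in EC-N1ICD then became 0, with adjusted p of 0.184 for Slc5a4b and 0.307 for Slc38a4. In EC-Rbpj-KO it was 3 (Slc5a4b, 0.0492, Slc38a2, 0.00919, and Slc5a3, 0.0407), and the Slc38a6 call ended (0.0846). Signals near background limit Slc1a3, Slc1a4, Slc1a5 and Slc16a3, and Slc5a4b in the wild type of the EC-N1ICD set, where the size of a fold is uncertain.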
